A study of Mus musculus with 6 samples.

Results

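The genes described here encode 9 antiviral effector proteins of the mouse: Mx1, Mx2, Rsad2 (viperin), Bst2 (tetherin), Samhd1, Apobec3, Ifitm1, Ifitm2 and Ifitm3. They were taken by name from the 55357 genes of the RNA-seq table, and all 9 were listed and had a mean of at least 10 normalized counts over the cultures, as had 15280 genes in all. Mouse cortical astrocytes, prepared from embryos of C57BL/6 mice, were transfected with a plasmid in which the CMV promoter drives FLAG-tagged BRAF K499E (3 cultures, KE), and the comparison group was 3 nontransfected cultures labelled naive (NT). RNA was collected at 48 hours. BRAF K499E (BRAF KE) is a RASopathy-associated form of the kinase BRAF, which activates MEK and ERK. Since NT cultures received no plasmid, the effects of plasmid DNA, of the transfection and of BRAF KE cannot be told apart, and the CMV promoter is not restricted to astrocytes. For its staining experiment, the paper transfected such astrocytes with a GFP plasmid as well. Its text does not say whether the RNA-seq cultures also received it, and any effect of GFP could not be told apart either. The labels do not say whether the cultures of a group came from separate preparations, so p-values measure the spread between these cultures, which may be technical.

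Cells that detect a virus or foreign nucleic acid secrete type I interferon, which acts through its receptor, JAK kinases and transcription factors such as STAT2 and IRF9 to switch on many interferon-stimulated genes. The proteins encoded by the genes described here act at successive steps of a viral life cycle. The IFITM proteins hinder fusion of the viral with the cellular membrane, the Mx proteins are dynamin-like GTPases that bind viral nucleocapsids, SAMHD1 and APOBEC3 restrict reverse transcription, viperin makes a chain-terminating nucleotide from CTP, and tetherin holds budding virions on the cell surface. Astrocytes respond to type I interferon, and several of these genes are also expressed by microglia, the macrophages of the brain.

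In KE cultures, 7 of the 9 genes were upregulated, and none was downregulated, by limma's test on log2(normalized count + 1) with an adjusted p-value under 0.05 (Benjamini-Hochberg over all tested genes). In the same comparison 51.3% of all tested genes were called, 25.3% upward and 26.0% downward. The log2 fold change (log2FC) exceeded 1 in 5 of the 9, against 4.74% of all tested genes that were called upward by as much. The values of the KE and NT cultures did not overlap for 7 of the 9 genes, against 59.9% of all tested genes. The median log2FC was 1.35 for the 9 genes and 0.0018 for all tested genes. The changes were of very unequal size. Mx1, Mx2 and Rsad2 rose by 14.4-fold to 24.9-fold, Bst2 and Ifitm3 rose by 4.28-fold and 2.55-fold, Apobec3 and Ifitm2 rose by 1.55-fold and 1.32-fold, and Samhd1 and Ifitm1 were not called. Summed, the 9 genes made up 0.238% to 0.251% of all normalized counts in the KE cultures and 0.0650% to 0.0783% in the NT cultures.

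**Figure D1:**
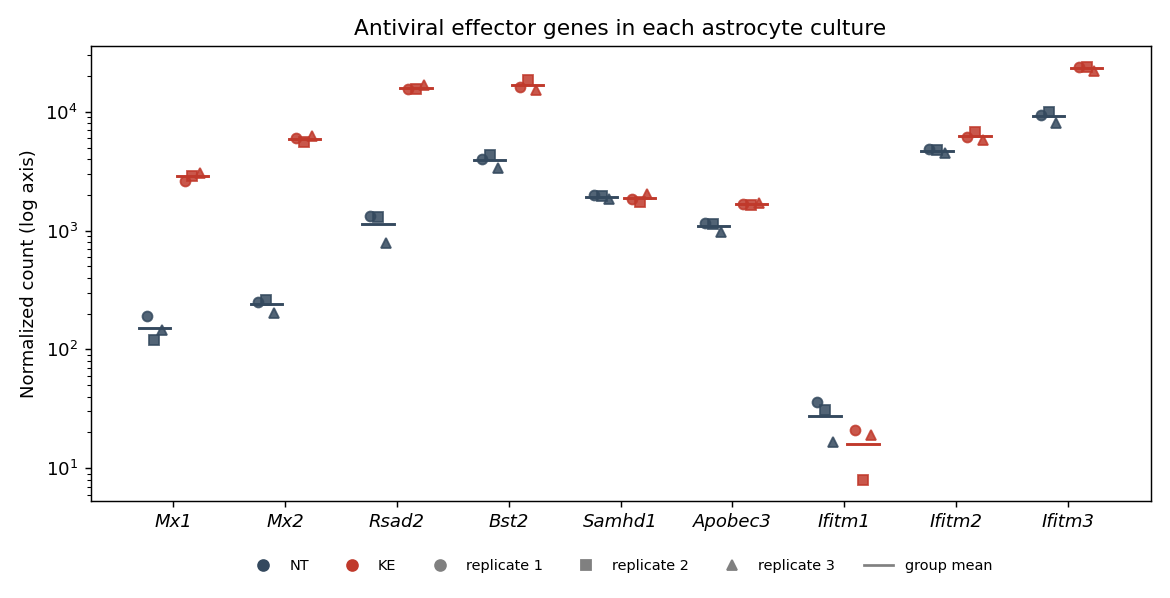
Normalized count of each gene (y axis, log scale) in the 3 NT cultures (dark) and the 3 KE cultures (red), with the marker shape giving the replicate number and the short line the group mean. The groups are apart for 7 genes, and they overlap for Samhd1 and for Ifitm1, which lies under 40 normalized counts in every culture.

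The plasmid-encoded gene was measured first. Braf was 35025, 34933 and 40978 normalized counts in KE replicates 1, 2 and 3 and 925, 811 and 946 in NT replicates 1, 2 and 3, so the lowest KE culture was 36.9 times the highest NT culture. The astrocyte identity of the cultures was examined with 10 marker genes, all of which were detected. Of these, Gfap averaged 31508 ± 747 in KE and 17292 ± 658 in NT (SD, n = 3 each), and Aqp4 was 10973 ± 210 in KE and 10809 ± 352 in NT, while S100b stayed under 32 normalized counts in every culture. Markers of microglia and macrophages were present too. Their summed level was 57240 to 70654 normalized counts in the NT cultures and 8894 to 11256 in the KE cultures, 16 of the 17 tested markers were downregulated (26.0% of all tested genes were), and only Siglech was at 0 in every culture. RNA of such cells was present in both groups, and its part in the results below was not tested. In bulk RNA, fewer cells of a type and less RNA per cell cannot be told apart.

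The promoter windows of the genes are shown because 7 of them rose together. RefSeq windows from 250 bases before to 50 bases after the transcription start (build GRCm38.p6) were found for 7 of the 9 genes, Mx1 and Mx2 having no entry. They were searched on both strands for GAAA followed by any 2 bases and a second GAAA, the core of the interferon-stimulated response element (ISRE) bound by complexes with STAT2 and IRF9, and for TTCNNNGAA, the gamma-activated sequence. The ISRE core was found in 5 of the 7 genes, namely Rsad2, Bst2, Apobec3, Ifitm2 and Ifitm3, and in 3.99% of all 27025 genes with a window (3.44% of all 32851 windows of that length). It was not found in the windows of Samhd1 and Ifitm1. Of the other antiviral effectors with a window, listed further below, 11 of 25 held the ISRE core. Of the genes of type I interferon signalling with a window, 2 of 11 held it. TTCNNNGAA was found for Bst2, Samhd1 and Ifitm3, that is 3 of the 7 genes, and for 9.55% of all genes with a window (8.30% of all windows). A match is a description of these letters and not a measured binding site. The 250 bases before the start are printed 5′ to 3′ on the strand of the gene, with the ISRE core or its reverse complement in capitals. They are given for Rsad2 (minus strand, chr12:26456453-26456702), Bst2 (minus strand, chr8:71537473-71537722), Ifitm2 (minus strand, chr7:140955962-140956211) and, as a gene without the ISRE core, Samhd1 (minus strand, chr2:157135097-157135346). The TTCNNNGAA match of Samhd1, which starts 235 bases before the start, is not in capitals.
Rsad2: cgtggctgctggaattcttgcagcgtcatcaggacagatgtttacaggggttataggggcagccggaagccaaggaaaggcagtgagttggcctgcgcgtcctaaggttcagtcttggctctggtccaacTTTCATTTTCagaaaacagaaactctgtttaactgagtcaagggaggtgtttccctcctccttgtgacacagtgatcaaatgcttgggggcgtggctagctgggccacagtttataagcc
Bst2: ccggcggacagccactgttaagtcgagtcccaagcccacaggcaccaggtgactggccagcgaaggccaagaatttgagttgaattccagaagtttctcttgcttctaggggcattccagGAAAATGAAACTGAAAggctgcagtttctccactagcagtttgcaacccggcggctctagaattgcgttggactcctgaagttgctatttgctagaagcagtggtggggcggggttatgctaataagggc
Ifitm2: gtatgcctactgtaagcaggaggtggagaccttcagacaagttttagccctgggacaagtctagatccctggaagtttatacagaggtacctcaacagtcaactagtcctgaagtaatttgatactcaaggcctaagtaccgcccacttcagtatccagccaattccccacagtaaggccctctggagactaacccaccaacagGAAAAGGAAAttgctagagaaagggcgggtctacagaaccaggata
Samhd1: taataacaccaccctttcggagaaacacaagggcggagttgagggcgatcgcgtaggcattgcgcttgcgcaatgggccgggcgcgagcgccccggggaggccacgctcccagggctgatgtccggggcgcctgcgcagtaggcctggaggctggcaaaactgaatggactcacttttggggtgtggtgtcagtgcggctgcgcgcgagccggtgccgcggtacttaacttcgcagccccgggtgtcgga
In Bst2, the pair of matches starts 130 and 124 bases before the start, so the matches share bases, and a TTCNNNGAA match that starts 136 bases before the start overlaps the first of them. The match of Rsad2 starts 120 bases, that of Apobec3 140 bases and that of Ifitm2 46 bases before the start. Ifitm3 has no match before the annotated start and a pair of matches just after it, in chr7:141010716-141010742 (minus strand).
Ifitm3: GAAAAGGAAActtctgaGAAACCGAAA
A TTCNNNGAA match of Ifitm3, from base 14 to base 22 after the start, overlaps the second of these. Apobec3 has a second window in RefSeq, which holds neither motif.

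Among the nucleocapsid-binding GTPases, both Mx genes rose, from low levels. Mx1 (ENSMUSG00000000386) spans bases 97248235 to 97264107 of chromosome 16 in GRCm39, on the minus strand. Its level was 2631, 2885 and 3062 normalized counts in KE and 190, 120 and 147 in NT. Every KE culture was above every NT culture, with mean levels of 2859 ± 217 and 152 ± 35.6 (SD, n = 3 each). The log2FC was 4.25 (standard error 0.14, 95% interval 3.93 to 4.56, adjusted p = 6.3e-09 from limma), which is the 23rd highest of all tested genes. C57BL/6 and many other inbred strains carry an Mx1 allele that lacks internal exons and does not give a functional protein, so this rise is one of transcripts. In the Gencode annotation of the C57BL/6J genome, the canonical Mx1 transcript has 9 exons and 397 codons, and that of Mx2 has 14 exons and 656 codons. Mx2 (ENSMUSG00000023341), whose protein acts in the cytoplasm, lies on the plus strand of chromosome 16 from 97336508 to 97362100. For Mx2 too, transcripts and not protein were measured. Its values were 5990, 5578 and 6268 in KE and 251, 262 and 204 in NT. All KE values were far above all NT values. The log2FC was 4.64, with a standard error of 0.10 and limma's adjusted p = 2.5e-10. This 24.9-fold rise was the largest change of the 9 genes and gave the 15th highest log2FC of all tested genes.

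The starts of Mx1 and Mx2 are 73.2 kb apart, and the copies share part of their sequence. Of the 31-base words of the canonical Mx1 transcript 8.89%, and of those of Mx2 12.1%, also occur in transcripts of other genes, nearly all of them in each other, so a small part of their reads could have been divided between them by the counting. The log2 ratio of Mx1 to Mx2 averaged -1.06 ± 0.12 in KE and -0.67 ± 0.40 in NT (SD, n = 3 each). The ratios overlapped, as NT replicate 2 (-1.12) lay within the range of the KE cultures. Their difference of -0.39 was not called (exact permutation test, two-sided, p = 0.3, adjusted p = 0.3 over 4 ratios), and with 3 cultures against 3 the smallest p is 0.1.

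Viperin, the radical SAM enzyme encoded by Rsad2, sits on the endoplasmic reticulum and on lipid droplets. Rsad2 (ENSMUSG00000020641) spans bases 26492745 to 26506451 of chromosome 12 in GRCm39, on the minus strand. It was measured at 15486, 15534 and 16886 normalized counts in KE and at 1319, 1299 and 788 in NT. The KE cultures lay within 1.09 times of each other, and NT replicate 3 was well under the other NT cultures, the highest NT value being 1.68 times the lowest. Mean levels of 15969 ± 795 in KE and 1135 ± 301 in NT (SD, n = 3 each) gave a difference of 3.85 on the log2 scale (95% interval 3.50 to 4.20, limma adjusted p = 2.0e-08), and of 3.61 without NT replicate 3. Its neighbour Cmpk2, a nucleotide kinase gene whose start is 12.8 kb away and whose product supplies CTP, had a log2FC of 2.95 and was upregulated. On the other side, Rnf144a (log2FC 0.01, adjusted p = 0.92 from limma) was not called.

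Tetherin is anchored in the membrane at both ends, and Bst2 was already highly expressed in NT. Bst2 (ENSMUSG00000046718) spans bases 71986895 to 71990114 of chromosome 8 in GRCm39 (minus strand). Its values were 16085, 18634 and 15233 in KE and 3996, 4353 and 3335 in NT. All KE cultures were above all NT cultures, with means of 16651 ± 1769 and 3895 ± 517 (SD, n = 3 each), and the log2FC was 2.10 (95% interval 1.88 to 2.32, limma adjusted p = 4.3e-08). None of the 31-base words of its canonical transcript occur in another gene; its other transcripts were not examined in this way. The nearest tested genes were Mvb12a, which was upregulated by a log2FC of 0.56, and Plvap, which was not called (-0.10, adjusted p = 0.49 from limma).

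The genes that act on reverse transcription changed little or not detectably. SAMHD1 degrades deoxynucleoside triphosphates and so starves reverse transcriptases of substrate. Samhd1 (ENSMUSG00000027639; chromosome 2 of GRCm39, bases 156939453 to 156977187, minus strand) was 1828, 1750 and 2039 in KE and 1973, 1962 and 1837 in NT. The groups overlapped, and KE replicate 3 was the highest and KE replicate 2 the lowest of the 6 cultures. The log2FC was -0.04 (standard error 0.07, adjusted p = 0.65 from limma), with a 95% interval of -0.20 to 0.11, so that a rise of the size seen for Apobec3 or Ifitm2 lies outside it. Its neighbours Rbl1 and Mtcl2 were downregulated, with log2FC of -0.64 and -0.45. APOBEC3 is a cytidine deaminase that is packaged into retroviral particles and mutates the viral DNA. Apobec3 (ENSMUSG00000009585), on the plus strand of chromosome 15 from 79775860 to 79800206, was 1678, 1657 and 1701 in KE and 1166, 1130 and 963 in NT. These groups were apart, and the KE cultures had a coefficient of variation of 1.34%. The log2FC was 0.63 (standard error 0.08, 95% interval 0.46 to 0.81, adjusted p = 5.9e-05 from limma). The annotation lists exons of D730005E14Rik and Cbx7 on the opposite strand over Apobec3 and of the predicted gene Gm59337 on its own strand. The library was stranded, while whether the counting used the strand is not stated in the sources used here. Cbx7 was upregulated by a log2FC of 0.67.

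The IFITM genes lie in a cluster on chromosome 7 of GRCm39, and the changes of Ifitm3 and Ifitm2 differed in size while Ifitm1 was not called. Ifitm3 (ENSMUSG00000025492, minus strand, 140589499 to 140591282), whose protein works in endosomes, was 23924, 23983 and 21939 in KE and 9407, 10008 and 8066 in NT. It had the highest normalized count of the 9 genes in every culture, and its groups did not overlap (means 23282 ± 1163 and 9161 ± 994, SD, n = 3 each). The log2FC was 1.35 (standard error 0.08, 95% interval 1.18 to 1.52, adjusted p = 1.9e-07 from limma). Ifitm2 (ENSMUSG00000060591, minus strand, 140534738 to 140536228) was 6175, 6694 and 5759 in KE and 4833, 4801 and 4506 in NT. Its groups were apart by a smaller step, with a log2FC of 0.40 (standard error 0.07, 95% interval 0.25 to 0.54, adjusted p = 4.4e-04 from limma). Ifitm1 (ENSMUSG00000025491, plus strand, 140546316 to 140549743), whose protein acts mainly at the plasma membrane, lies between the other two and was nearly silent. It was 21.1, 7.95 and 19.2 in KE and 35.8, 30.7 and 16.6 in NT, and the groups overlapped because of NT replicate 3. Its log2FC of -0.79 was not called (standard error 0.42, 95% interval -1.72 to 0.14, adjusted p = 0.14 from limma). The value depended on single cultures, being -0.38 without KE replicate 2 (adjusted p = 0.43) and -1.11 without NT replicate 3 (adjusted p = 0.054).

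The IFITM genes were also compared with each other within each culture. The log2 ratio of Ifitm2 to Ifitm3 was -1.95, -1.84 and -1.93 in KE and -0.96, -1.06 and -0.84 in NT, a difference of -0.95 with no overlap between the groups. Ratios of Ifitm1 to Ifitm2 and of Ifitm1 to Ifitm3 were lower in KE without overlap too, the differences being -1.18 and -2.14. Each of these had the smallest p that the exact permutation test can give with 3 cultures against 3, p = 0.1 (two-sided, adjusted p = 0.13 over 4 ratios), so none passed the threshold. The single-culture values of Ifitm1 bear on its ratios, and that of Ifitm1 to Ifitm2 was -0.72 without KE replicate 2. Sequence sharing could limit these values. Of the 31-base words of the canonical transcript, 32.0% for Ifitm1, 34.7% for Ifitm2 and 12.3% for Ifitm3 occur in other genes of Gencode vM39. These are mostly predicted genes, and whether the counting, with Gencode vM28 models, included them was not examined. The gene that shares the most words with Ifitm2, Gm45717, also overlaps its exons on the same strand. For Ifitm1, at these counts, a few reads assigned from its relatives would change the level.

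**Figure D2:**
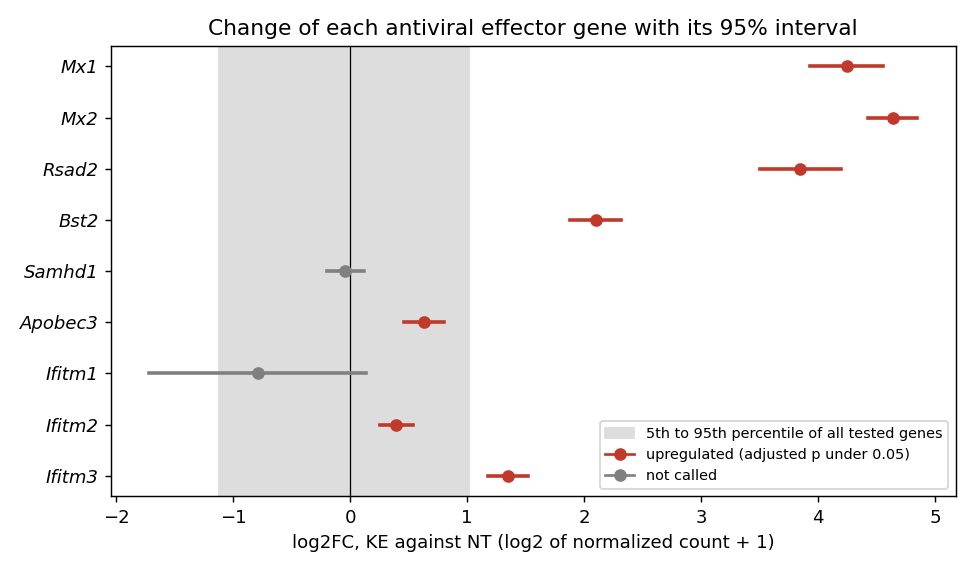
log2FC of each gene between KE and NT (x axis, on the scale of log2 of the normalized count + 1), with its 95% interval from limma. The grey band spans the 5th to 95th percentile of all tested genes (-1.12 to 1.01), and Mx1, Mx2, Rsad2, Bst2 and Ifitm3 lie above it.

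To compare levels between genes, normalized counts were divided by the length of the canonical transcript. In NT, Ifitm3 was highest at 7174 ± 779 normalized counts per kilobase (SD, n = 3), followed by Bst2 (4832 ± 641) and Ifitm2 (4761 ± 182), whose values overlapped. Apobec3 (532 ± 53.0) and Samhd1 (490 ± 19.2) came next and also overlapped, and below them were Rsad2 (300.2 ± 79.7), Mx2 (98.7 ± 12.7), Mx1 (56.5 ± 13.2) and Ifitm1 (37.1 ± 13.3), of which Mx1 and Ifitm1 overlapped. In KE the order changed. Bst2 was highest at 20659 ± 2195, and Ifitm3 (18232 ± 911), Ifitm2 (6272 ± 473), Rsad2 (4222 ± 210), Mx2 (2456 ± 143), Mx1 (1061 ± 80.4), Apobec3 (822 ± 11.0), Samhd1 (477 ± 38.0) and Ifitm1 (21.5 ± 9.51) followed, with no overlap between neighbours in that order. Rsad2 and both Mx genes thus passed Apobec3 and Samhd1. With the union of all annotated exons as the length, Ifitm3 instead of Bst2 was highest in KE, Ifitm2 was above Bst2 in NT, and Rsad2 stood before Samhd1, with overlapping values, and before Apobec3 in NT. Samhd1 was then above Apobec3 in both groups without overlap. The rise of both Mx genes past Apobec3 and Samhd1 was found with either length.

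**Figure D3:**
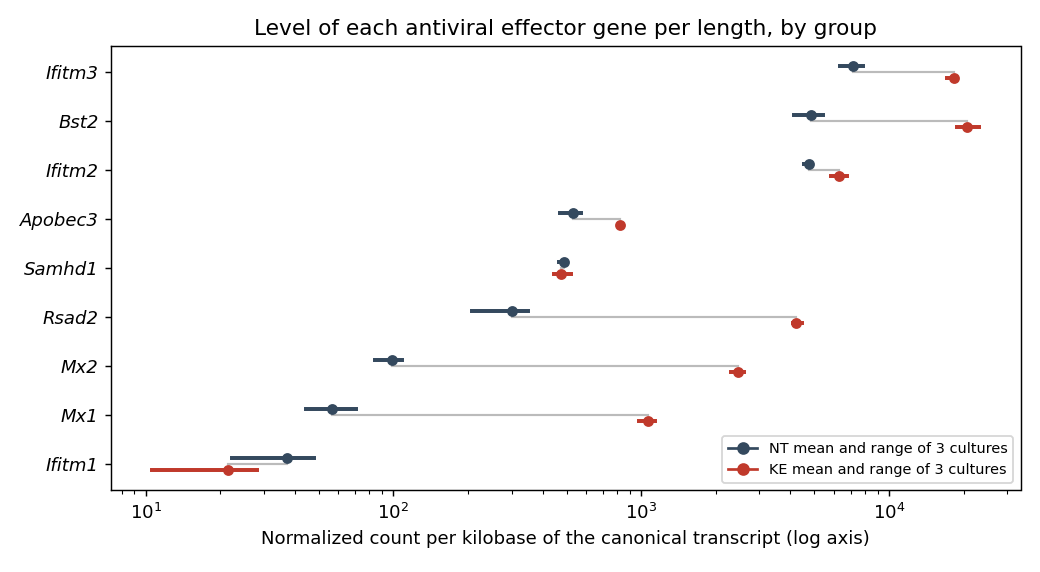
Normalized count per kilobase of the canonical transcript (x axis, log scale) for each gene, ordered by the NT level, with the mean and the range of the 3 cultures of NT (dark) and KE (red). Mx1 moves from 56.5 to 1061 and passes Samhd1 and Apobec3, while Samhd1 stays at 490 and 477.

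The NT cultures themselves were not alike for these genes. NT replicate 3 was the lowest NT culture for 8 of the 9 genes, all but Mx1, whereas it was lowest for 32.0% of all tested genes. It was lowest for 29 of 30 other antiviral effector genes and 8 of 13 genes of type I interferon signalling, for 16 of 17 microglia and macrophage markers and for 1 of 10 astrocyte markers. What sets this culture apart was not tested. Without it, all 7 upregulated genes kept their calls, with log2FC from 0.36 (Ifitm2) to 4.53 (Mx2).

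Other interferon-stimulated effectors were compared as a list of 30 genes. Of these, 28 were upregulated and 2 downregulated, with a median log2FC of 1.97, and the groups did not overlap for any of them. Of all tested genes, 25.3% were upregulated, 26.0% downregulated and 59.9% without overlap. The largest rises were those of Ifit3b (4.19) and Ifit3 (4.04), which belong to the IFIT family, and of Oasl1 (3.73), which belongs to the oligoadenylate synthetase family. Mx1 and Mx2 had higher estimates than every gene of this list, though the 95% interval of Mx1 includes the value of Ifit3b. The larger of the 2 falls was that of Ch25h, whose enzyme makes an antiviral oxysterol. Ch25h dropped by a log2FC of -4.08, from 1230 ± 75.8 to 73.6 ± 22.0 (SD, n = 3). Ifit3 and Ifit3b are related copies, and how reads were divided between them was not examined.

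Of 13 genes of type I interferon signalling, 11 were upregulated (against 25.3% of all tested genes, with 26.0% downregulated), Ifnar1 was downregulated (log2FC -0.27) and Irf3 was not called (-0.22, adjusted p = 0.073 from limma), though it was called downward with the replicate block and without KE replicate 2. Ifnb1, the gene of interferon beta, had values of 233, 198 and 235 in KE, while NT replicates 1 to 3 each list it at 0. The largest other rises were those of Irf7 (3.81), which amplifies interferon production, and Usp18 (2.82), a feedback inhibitor of the receptor. Stat2 (1.68) and Irf9 (0.87), whose products act on the response element, were also upregulated. The upregulation of Tyk2 (0.22) was lost in 5 of 14 alternatives, among them those without KE replicate 1 or 2 or NT replicate 1 or 3.

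Genes related in sequence or enzyme class to the antiviral effectors were divided. In a list of 19 such genes 14 were tested, of which 6 were upregulated, 2 downregulated and 6 not called (25.3% of all tested genes were upregulated and 26.0% downregulated), with a median log2FC of 0.09. None had a log2FC above 1. The upregulated genes included the dynamin genes Dnm1 (0.78) and Dnm3 (0.40), the radical SAM enzyme genes Cdk5rap1 (0.53), Mocs1 (0.45) and Tyw1 (0.34), and the cytidine deaminase gene Apobec1 (0.23). Ifitm7 (-0.96) and Ifitm10 (-0.32) were downregulated, and neither call held without KE replicate 1 or without NT replicate 2. The call of Ifitm7 was also lost without KE replicate 2 or NT replicate 1 and without the variance trend, that of Dnm3 without the trend and on leaving out any 1 culture other than KE replicate 1, and that of Cdk5rap1 without KE replicate 1.

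SAMHD1 removes deoxynucleotides and viperin uses CTP, so 18 genes of nucleotide supply were compared as well. Downregulation was found for 10 (against 26.0% of all tested genes) and upregulation for 4 (against 25.3%), with a median log2FC of -0.45. The largest falls were of Tk1 (-1.08), Tyms (-0.99), Dut (-0.98) and Rrm1 (-0.92), which serve DNA synthesis in dividing cells, and the rises were of Rrm2b (0.60), Dguok (0.47), Nt5m (0.42) and Tk2 (0.41), which supply or trim deoxynucleotides outside S phase or in mitochondria. The CTP synthase genes Ctps1 (-0.04) and Ctps2 (0.12) were not called. Among 16 partners and modifiers of the proteins, 4 were upregulated (against 25.3% of all tested genes) and 5 downregulated (against 26.0%), with a median of 0.01, so both shares were near those of all genes. Ccna2 (-1.25), Cdk1 (-1.05) and Cdk2 (-0.92), a cyclin and kinases that phosphorylate SAMHD1, were downregulated, the kinase gene Cdk6 was not called (-0.11, adjusted p = 0.14 from limma), and Cdkn1a (0.60), which encodes an inhibitor of these kinases, was upregulated. Zmpste24, Zdhhc20 and Nedd4, whose products assist, palmitoylate or ubiquitinate IFITM proteins, were not called, with log2FC of 0.11, 0.17 and -0.02, but Zdhhc20 was called with the replicate block and without KE replicate 2, and Nedd4 with quantile normalization. Setd7, which encodes a methyltransferase of IFITM3, was downregulated (-0.32). The genes that load iron-sulfur clusters on enzymes such as viperin were split, with Ciao1 (0.43), Ciao3 (0.36) and Mms19 (0.17) upregulated, Ciao2a (-0.36) downregulated and Ciao2b (0.18) not called, and the call of Mms19 was lost in 6 of 14 alternatives, 4 of them those without KE replicate 1 or 2 or NT replicate 1 or 3.

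**Figure D4:**
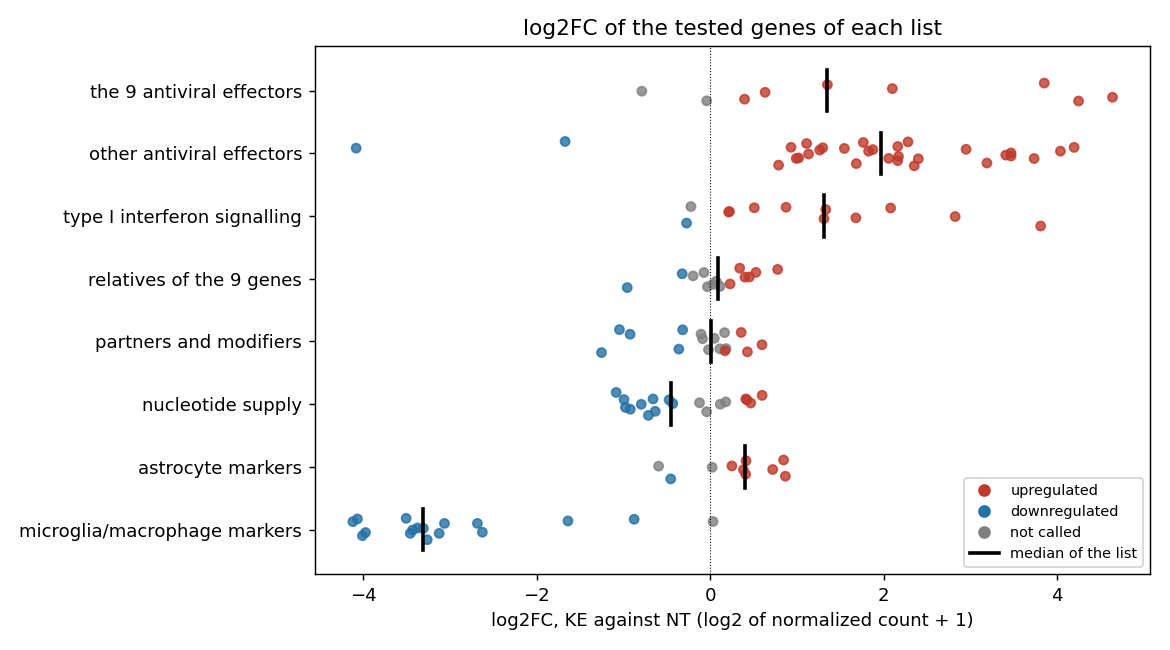
log2FC between KE and NT (x axis) of each tested gene in 8 lists, with the black bar at the list's median, red for upregulated, blue for downregulated and grey for genes not called. Ifnb1 is left out of the points because it is listed at 0 in NT. The medians of the 9 antiviral effectors (1.35) and of the other antiviral effectors (1.97) lie to the right, and that of the microglia and macrophage markers (-3.31) to the left.

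The genes whose pattern over the 6 cultures was most like that of each gene were found by the root mean square difference of the log2 values, each taken relative to its own NT mean, among 12064 other genes with a mean of at least 100. Bst2 was nearest to Ly6e (0.07) and Rsad2 to Iigp1 (0.09), both of which are interferon-inducible. Nearest to Mx1 was Ifi47 (0.31) and to Mx2 Gbp11 (0.32), which encode interferon-inducible GTPases, at larger distances. The nearest genes of Ifitm3, Apobec3, Ifitm2 and Samhd1 were Lrrc51 (0.04), 1110032F04Rik (0.04), Lyrm2 (0.02) and Ankhd1 (0.02), and that of Ifitm1 was Syt7 (0.31). For the mean pattern of the 9 genes, the nearest were Samd9l (0.03), Rnf135 (0.06), Trim21 (0.08), Parp12 (0.09) and Ddx58 (0.09), with log2FC from 1.70 to 1.85. With 6 cultures in 2 groups, this measure mostly ranks genes by the size of their change.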

How the data were processed

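RNA-seq was analysed for 3 KE and 3 NT cultures, grouped by the sample labels. The authors deposited a normalized signal per gene and culture, namely Salmon gene counts scaled by the size factors of DESeq2. The supplemental methods, written mainly for the study's other RNA-seq samples, give TrimGalore, then STAR on GRCm39, with Gencode vM28 models; the submitters' notes name GRCh38, although the identifiers are of the mouse. The approximate depth was 24490000 to 34146000 reads. Only 79.6% to 82.6% of low values lay within 0.1 of whole multiples of a read, so no count test was run.

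In place of the authors' DESeq2 test, log2(value + 1) was fitted with limma 3.58.1 (R 4.3.3, variance trend, group only), two-sided, over the 15280 genes that averaged 10 or more, with Benjamini-Hochberg adjustment and calls at 0.05. This scale understates changes of low genes. Positions came from Gencode vM39 on GRCm39, with 54749 identifiers found, and promoters from RefSeq on GRCm38.p6.

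The genes and lists were chosen with earlier results of these data known. By rule the text names Braf, the 9 genes, list genes with the largest changes, nearest tested neighbours and most alike genes; other list genes were named for their role. A few list genes enter the counts but are not reported by name. Alternatives were pseudocounts of 0.5 and 10, no filter or a mean of at least 50, quantile or 75th percentile scaling, no variance trend, a replicate block, and leaving out each culture.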

Additional observations from a re-analysis of the deposited data

How the results depend on the processing

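Under the alternatives, direction and call held in 321 cases, in which a count had to move by less than 1.5 times, and 8 cases changed. The 321 cases include the 4 log2 ratios between copies, with 9 alternatives each. Only their direction could change, because their exact permutation test cannot give a p-value under 0.1 with so few cultures. The 7 upregulated antiviral effectors were called in each of the 14 alternatives. Samhd1 changed sign, to 0.0057 without KE replicate 2 (adjusted p = 0.95), and lay between -0.10 and 0.0057 as each culture was left out, called in none of the 14 alternatives. The number of related genes downregulated (2) was 1 without the variance trend and 0 to 2 as each culture was left out, and that of downregulated interferon signalling genes (1) was 2 with the replicate block, with Irf3 added, and 1 to 2 as each culture was left out (2 without KE replicate 2); the lowest number of related genes, 0, was that without KE replicate 1 and that without NT replicate 2. The cause of these changes was not tested. Ifitm1 was untested with a mean of at least 50. The fit with a replicate block called 8046 of all tested genes, in place of 7844. Same-numbered KE and NT cultures had correlations of deviations of 0.059, 0.066 and 0.065 across genes, and other pairs had -0.050 to -0.010. Deviations within a group of 3 cultures cancel, so positive values for same-numbered pairs bring negative ones elsewhere, which are not separate evidence. Each culture correlated best with its own number, which is a small hint from the data and not part of the design. The block changed no call of the 9 genes. Other scalings moved the median of all tested genes to at most 0.029. Depth limits the values of Ifitm1 most, where 3 reads were worth 2.71 to 3.75 normalized counts.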

Other observations

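Counts of called markers of each cell type are to be read against all tested genes, of which 25.3% were upregulated and 26.0% downregulated. All 7 tested oligodendrocyte lineage markers were downregulated, from Olig1 (log2FC -0.20) to Mbp (-1.89), and the calls of Olig1, Sox10 and Cspg4 were lost in several alternatives. Of 10 astrocyte markers, 7 were upregulated, Gfap (0.87) and Slc1a2 (0.85) by the most, and Gja1 (-0.46) was downregulated. The upregulation of Slc1a3 (0.25) was lost with quantile normalization. Of 6 mural and fibroblast markers, 3 were upregulated, with Rgs5 (0.79) highest, and Dcn (-0.65) was downregulated. The calls of Col1a2 and Lum were lost in 4 and 5 of 14 alternatives, both of them without KE replicate 3 and without the variance trend, where 1 of the 3 rises was left. Of 5 tested neuron markers, Tubb3 (0.43) was upregulated and Map2 (-0.51) and Stmn2 (-0.58) were downregulated. Snap25 (-0.77) and Syt1 (0.50) were not called, but both were called without the variance trend, and Snap25 also without KE replicate 1. The endothelial markers were low, with a sum of 237 to 302 normalized counts in KE and 337 to 496 in NT, and 2 of the 3 tested were downregulated, Flt1 (-0.62) and Pecam1 (-0.86), the latter not in 3 of 13 alternatives. Among the microglia and macrophage markers, Fcrls (-4.12), Itgam (-4.07) and Adgre1 (-4.01) had the largest falls, P2ry12 had a log2FC of -0.88, and Sall1 (0.03, adjusted p = 0.67 from limma) was not called.

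Among the tested neighbours, 12 are not themselves among the 9 genes. Of these, 4 were upregulated, against 25.3% of all tested genes, and 3 were downregulated, against 26.0%. The other 5 were not called. With 12 genes, neither count is read as a result about the neighbours. The rises were those of Cmpk2 (log2FC 2.95) beside Rsad2, Cbx7 (0.67) beside Apobec3, Mvb12a (0.56) beside Bst2 and Pgghg (0.42) beside Ifitm2. Beside the Mx pair, Bace2 (0.06) and Prdm15 (-0.21) were not called, and beside Ifitm3, B4galnt4 was downregulated (-0.41).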
